A study of Mus musculus with 8 samples.

Results

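A set of 10 genes that mark tissue macrophages or encode scavenger receptors were followed in mouse mammary tumours with and without a conditional deletion of Fgfr1. The members are Mrc1, Cd163, Folr2 and Timd4, counted here as resident-type markers, Adgre1 and Cd68, which most macrophages express, and Trem2, Arg1, Msr1 and Marco, counted as tumour-type markers. They were chosen as the probes whose RefSeq accession belongs to one of these 10 genes, which gave 12 of the 55681 distinct probes on the array and 10 of 21368 named genes. The 4 tumours labelled FGFR1 KO came from K19-tva/fgfr1loxP/loxP mice and the 4 labelled WT from control K19-tva mice, so both groups carry K19-tva. All were on the FVB background, into which the floxed allele had been backcrossed from ICR. How the floxed gene was recombined, in which cells, what started the tumours and the age of the mice are not given in the sources used here. Each tumour RNA was hybridised on 1 Agilent 2-colour array beside a universal human reference RNA, and the values below are log2 ratios of red, taken as the tumour, over green, taken as the reference. The label field names only cy3, but the labelling protocol gives the tumour the red dye. The same reference RNA was on every array, and the median SD within groups was 0.307 (FGFR1 KO) and 0.389 (WT) in red against 0.162 (FGFR1 KO) and 0.183 (WT) in green over 22367 spots.

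Macrophages take up dying cells, lipoproteins, haemoglobin and microbes through scavenger receptors and other surface receptors. In the mammary gland they live in the stroma and around ducts and fat, and tumours add cells that come from blood monocytes. Resident macrophages are commonly described by Mrc1, Folr2, Cd163 and Timd4, and macrophages of growing tumours by Trem2, Arg1, Msr1 and Marco, but the sets overlap and the split is a convention. In RNA from whole tumour pieces, fewer cells of a type and less RNA per cell cannot be told apart.

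By the scanner software's flag, 68.9% to 83.9% of spots per FGFR1 KO array and 43.9% to 69.2% per WT array had red signal well above background. Precision is limited by having 4 arrays in each group. All FGFR1 KO arrays lay in the first row of the slide and all WT arrays in the other, so slide position and genotype cannot be told apart. WT 2 stood apart, with a mean correlation across probes of 0.379 to the other arrays, against 0.598 to 0.713 for the other 7. Part of each WT array, rows 97 to 336 and columns 83 to 164, was bright at negative-control spots. Of the 96 controls there, 0% on the FGFR1 KO arrays and 17.7% to 46.9% on the WT arrays had red signal over 50 intensity units after subtracting the local background. Whether each tumour came from its own mouse is not stated, so the tests see only the spread among these 8 samples, which may be technical. Fgfr1 itself, read by its probe with the brightest red signal, averaged 0.31 ± 0.11 on the FGFR1 KO arrays and 0.31 ± 0.06 on the WT arrays (SD, n = 4 each). The other Fgfr1 probes were wider on the FGFR1 KO arrays: A_55_P1967022 averaged 0.44 ± 0.92 in FGFR1 KO and 0.54 ± 0.27 in WT, and A_55_P2057777, in the bright part, 0.13 ± 1.56 in FGFR1 KO and 0.62 ± 0.19 in WT (SD, n = 4 each). Their groups overlapped, with limma adjusted p of 0.951 and 0.841. On both of these probes FGFR1 KO 3 was the highest of the 8 arrays, at 1.64 and 1.76. FGFR1 KO 4 was the lowest on both, at -0.42 and -1.99. Whether any of the 3 probes lies in the floxed part is not given, so they do not check the labels.

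The resident-type markers Mrc1, Cd163 and Folr2 read lower on every FGFR1 KO array than on any WT array, with log2 changes (FGFR1 KO minus WT) of -1.41, -0.72 and -0.99. The tumour-type markers overlapped between the groups, with changes from -0.70 for Marco to 0.44 for Arg1. Of all tested members, none passed limma's moderated test with Benjamini-Hochberg adjustment at 0.05 over the 39818 probes tested. Of the 9 members tested, 0 passed after adjustment and 4, namely Mrc1, Cd163, Folr2 and Adgre1, had an unadjusted p under 0.05, against 4 probes (0.01%) and 8.48% of all probes tested. Non-overlap of this kind, with every FGFR1 KO value below every WT value, was met by 3 of 9 members and by 2.7% of all probes tested. Leaving out WT 2 cannot bring overlap, so these 3 members met it again, and no other member did, against 4.35% of probes. In that setting 3 of 9 were lower with an unadjusted limma p under 0.05, against 5.54%. A change below 0 was seen for 7 of 9 members and 47.5% of probes. The members were picked with earlier results of these data known, so these shares are descriptions.

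The stretches of 250 bases before the transcription start, from RefSeq on build GRCm38.p6, are shown for the resident-type genes whose groups did not overlap, and for Trem2, whose groups did. Capitals mark the core GAGGAA, or TTCCTC on the other strand, of the site bound by PU.1, an ETS transcription factor that macrophages need. Mrc1 lies at chr2:14229164-14229413 on the plus strand, Cd163 at chr6:124304401-124304650 on the plus strand and Trem2 at chr17:48346151-48346400 on the plus strand. Folr2 has 2 starts in the table, on the minus strand, at chr7:101845332-101845581 (start A) and chr7:101857191-101857440 (start B).
Mrc1: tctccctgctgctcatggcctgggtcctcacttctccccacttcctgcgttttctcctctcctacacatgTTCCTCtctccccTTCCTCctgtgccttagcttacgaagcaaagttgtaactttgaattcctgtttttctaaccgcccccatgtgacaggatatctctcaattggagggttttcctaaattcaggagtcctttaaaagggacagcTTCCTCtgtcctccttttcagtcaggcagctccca
Cd163: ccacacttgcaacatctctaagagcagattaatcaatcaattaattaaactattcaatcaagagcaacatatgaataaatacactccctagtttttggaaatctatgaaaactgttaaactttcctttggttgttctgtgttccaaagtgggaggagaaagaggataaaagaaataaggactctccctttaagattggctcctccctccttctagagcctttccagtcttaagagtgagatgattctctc
Folr2, start A: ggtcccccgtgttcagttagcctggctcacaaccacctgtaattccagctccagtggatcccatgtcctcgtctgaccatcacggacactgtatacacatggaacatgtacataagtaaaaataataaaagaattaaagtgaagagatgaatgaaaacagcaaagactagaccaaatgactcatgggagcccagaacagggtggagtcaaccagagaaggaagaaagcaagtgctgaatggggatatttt
Folr2, start B: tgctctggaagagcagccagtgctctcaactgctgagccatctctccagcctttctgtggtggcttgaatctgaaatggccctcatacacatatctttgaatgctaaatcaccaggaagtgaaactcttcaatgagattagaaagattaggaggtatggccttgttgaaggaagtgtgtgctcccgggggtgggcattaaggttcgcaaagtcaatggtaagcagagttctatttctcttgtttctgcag
Trem2: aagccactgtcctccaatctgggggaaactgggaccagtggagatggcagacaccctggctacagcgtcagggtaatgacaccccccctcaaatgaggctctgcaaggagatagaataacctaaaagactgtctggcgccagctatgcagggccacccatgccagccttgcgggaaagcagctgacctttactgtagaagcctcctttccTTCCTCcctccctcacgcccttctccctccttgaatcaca
The PU.1 core matched 3 times before Mrc1, beginning 180, 167 and 35 bases before the start, 1 time before Trem2, 40 bases before it, and not at all before Cd163 or either start of Folr2. Of the 8 stretches that matched 7 members, 4 held the core, against 23.3% of 32851 stretches of the same length over all genes. A match is an exact run of letters in this window and was not tested as a binding site. Other spellings of the site were not searched, so a stretch without a match may still hold one. An AP-1 motif, TGANTCA on either strand, was in 3 of the 8 and in 6.75% of all stretches, and start A of Folr2 and Trem2 each held 1.

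Mrc1 encodes the mannose receptor CD206, an endocytic lectin of tissue macrophages that some endothelial cells also carry. Its probe (A_55_P1988108, accession NM_008625) read 1.54, 1.06, 2.02 and 1.48 on FGFR1 KO 1 to 4, against 4.31, 2.43, 2.59 and 2.42 on WT 1 to 4. The FGFR1 KO arrays lay below all WT arrays, and WT 1 stood far above the other 3 WT arrays. The means were 1.53 ± 0.39 in FGFR1 KO and 2.94 ± 0.92 in WT tumours (SD, n = 4 each), a difference of -1.41 ± 0.43 (SE) with a 95% confidence interval from -2.38 to -0.45. The limma p was 0.00925 and the adjusted p 0.443. Without WT 2 the difference was -1.58 ± 0.44 (SE; limma adjusted p = 0.362), and without WT 1 it was -0.96.

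The green reference signal of the Mrc1 probe was well above background on 3 FGFR1 KO arrays and on 0 WT arrays, so the ratio has a weak denominator. The red channel alone, as log2 signal minus the array's 75th percentile, read -2.21, -2.70, -1.52 and -2.23 on FGFR1 KO 1 to 4, against 0.98, -0.82, -0.81 and -0.87 on WT 1 to 4. The groups did not overlap in that channel either. After normalization across arrays, the green log2 signal averaged 6.15 ± 0.16 in FGFR1 KO and 6.20 ± 0.09 in WT (SD, n = 4 each), with overlapping groups. The spot lies in row 374, outside the bright part.

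Cd163 encodes the scavenger receptor that takes up haemoglobin bound to haptoglobin. Its probe (A_55_P2289819, NM_053094) read 0.55, 0.017, 0.49 and 0.24 on FGFR1 KO 1 to 4, against 1.56, 0.95, 0.96 and 0.72 on WT 1 to 4. The highest FGFR1 KO value lay below the lowest WT value, with a narrow gap, and red was well above background on all arrays but WT 3. Green was well above background on 4 FGFR1 KO and 2 WT arrays, but not on WT 1 or WT 3. The difference was -0.72 ± 0.21 (SE), with a 95% confidence interval from -1.20 to -0.25 (limma adjusted p = 0.44). It was -0.76 ± 0.23 (SE) without WT 2 (limma adjusted p = 0.398). The red channel alone read -3.02, -3.50, -3.28 and -3.80 on FGFR1 KO 1 to 4, against -1.56, -2.08, -2.36 and -2.47 on WT 1 to 4, again without overlap. With Agilent's own log ratio, the Cd163 groups overlapped. This spot is also outside the bright part.

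Folr2 encodes folate receptor beta, a marker of resident macrophages in many tissues, mammary gland included. Its probe (A_51_P162671, NM_008035) read 0.46, 1.18, 0.53 and 0.76 on FGFR1 KO 1 to 4, against 2.74, 1.43, 1.41 and 1.29 on WT 1 to 4. FGFR1 KO 2 and WT 4 came close to each other, and WT 1 again stood above the rest. The difference was -0.99 ± 0.33 (SE), with a 95% confidence interval from -1.74 to -0.23 (limma adjusted p = 0.481), and -1.08 ± 0.36 (SE) without WT 2 (limma adjusted p = 0.436). It moved to -0.65 without WT 1. The spot lies in row 126 and column 91, inside the bright part. In the red channel alone the groups overlapped, FGFR1 KO 2 at -0.75 being above WT 4 at -0.92, and they also overlapped after scaling between arrays.

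Timd4 encodes a phosphatidylserine receptor for dying cells that marks long-lived resident macrophages. Its probe (A_52_P609868, NM_178759) was well above background in red on 0 of 8 arrays and was not tested, so the data give no fold for it. Its log2 ratios ran from 0.0077 to 0.15 on the FGFR1 KO arrays and from -0.22 to 1.75 on the WT arrays, the highest being WT 1.

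**Figure D1:**
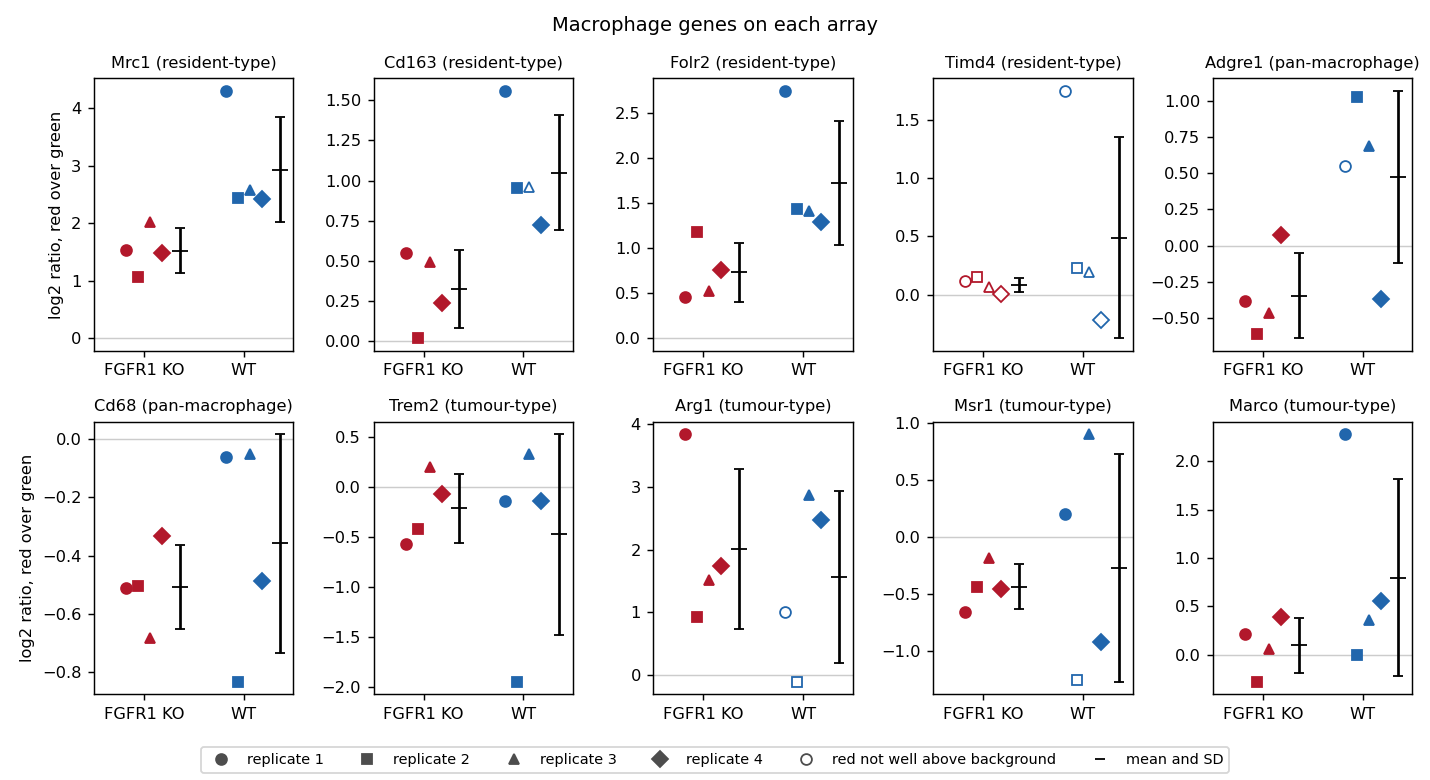
Log2 ratio of red (tumour) over green (reference) for the probe that represents each gene, with FGFR1 KO in red on the left and WT in blue on the right of each panel; symbols give the replicate, open symbols a red signal not well above background, and the bars the mean and SD of 4 arrays. Mrc1, Cd163 and Folr2 show no overlap between groups, WT 1 is the highest array for Mrc1 at 4.31, and Timd4 is open on all 8 arrays.

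Of the markers that most macrophages share, Adgre1 was lower in the mean and Cd68 nearly level. Adgre1 encodes F4/80, an adhesion receptor and the classic mouse macrophage antigen, and 2 probes of accession NM_010130 read it. The brighter probe, A_55_P2018934, read -0.38, -0.61, -0.46 and 0.070 on FGFR1 KO 1 to 4, against 0.55, 1.03, 0.69 and -0.37 on WT 1 to 4. WT 4 lay among the FGFR1 KO arrays, and the other 3 WT arrays above all of them. Its difference was -0.82 ± 0.30 (SE; limma adjusted p = 0.515), with a 95% confidence interval from -1.49 to -0.15. The spot lies in the bright part, and on WT 1 its red signal was not well above background.

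The other Adgre1 probe, A_55_P2144386, lies outside the bright part and differed by -0.46 ± 0.26 (SE; limma adjusted p = 0.658). It read -0.68, -0.36, -0.13 and -0.39 on FGFR1 KO 1 to 4, against 0.67, -0.58, -0.015 and 0.21 on WT 1 to 4. The probes disagreed most on WT 2, where the brighter one was the highest of the 8 arrays and the other one the second lowest. The other probe's red signal was not well above background on WT 2 and WT 4. Without WT 2 they differed by -0.64 ± 0.28 and -0.68 ± 0.21 (SE), with limma adjusted p of 0.559 and 0.398. The mean of both probes was lower on every FGFR1 KO array than on any WT array, although each probe alone overlapped. The share of all genes that do so by probe means is not given here.

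Cd68 encodes macrosialin, a glycoprotein of lysosomes that is abundant in macrophages of any origin. Its probe (A_55_P1961943, NM_001291058) read -0.51, -0.50, -0.68 and -0.33 on FGFR1 KO 1 to 4, against -0.063, -0.83, -0.051 and -0.49 on WT 1 to 4. WT 2 was the lowest array, and the groups overlapped. The difference was -0.15 ± 0.20 (SE), with a 95% confidence interval from -0.60 to 0.30 (limma adjusted p = 0.842), and -0.31 ± 0.17 (SE) without WT 2 (limma adjusted p = 0.655). The interval leaves room for a change of either sign.

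Trem2 encodes a lipid-sensing receptor of macrophages in tumours and fat. Its probe (A_55_P1962937, NM_001272078) read -0.57, -0.42, 0.21 and -0.070 on FGFR1 KO 1 to 4, against -0.14, -1.94, 0.33 and -0.14 on WT 1 to 4. WT 2 was far below the other 7 arrays, which overlapped. The difference was 0.26 ± 0.45 (SE), with a 95% confidence interval from -0.77 to 1.29 (limma adjusted p = 0.882), and it turned to -0.23 ± 0.23 (SE) without WT 2 (limma adjusted p = 0.827).

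Arg1 encodes arginase 1, an enzyme that breaks down arginine and is induced in many tumour macrophages. Its probe (A_51_P303160, NM_007482) read 3.84, 0.93, 1.52 and 1.74 on FGFR1 KO 1 to 4, against 1.01, -0.10, 2.87 and 2.48 on WT 1 to 4. It ranged more widely than any other member, with FGFR1 KO 1 highest and WT 2 lowest, and on WT 1 and WT 2 red was not well above background. Its green reference signal was well above background on 3 FGFR1 KO arrays and on 0 WT arrays, as for Mrc1. The difference was 0.44 ± 0.78 (SE), with a 95% confidence interval from -1.32 to 2.21 (limma adjusted p = 0.882). It turned to -0.11 ± 0.69 (SE) without WT 2 and to -0.17 without FGFR1 KO 1, and with the red channel alone it was 0.82.

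Msr1 and Marco encode class A scavenger receptors, which bind modified lipoproteins and microbes. The brighter Msr1 probe (A_52_P127130, NM_031195) read -0.66, -0.44, -0.18 and -0.46 on FGFR1 KO 1 to 4, against 0.20, -1.25, 0.90 and -0.92 on WT 1 to 4. The FGFR1 KO arrays lay close together, inside the range of the WT arrays, whose low end is WT 2, where red was not well above background. The difference was -0.17 ± 0.43 (SE; limma adjusted p = 0.924), -0.49 ± 0.37 (SE) without WT 2 (limma adjusted p = 0.757) and 0.22 without WT 3. The other Msr1 probe, A_52_P607128, was well above background in red on 1 FGFR1 KO array and 0 WT arrays and was not tested, and the signals gave no fold above 1 for it.

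Marco (A_51_P371750, NM_010766) read 0.22, -0.28, 0.060 and 0.39 on FGFR1 KO 1 to 4, against 2.28, -0.0050, 0.36 and 0.56 on WT 1 to 4. WT 1 stood above the rest, and the other 7 arrays overlapped. The difference was -0.70 ± 0.45 (SE), with a 95% confidence interval from -1.72 to 0.32 (limma adjusted p = 0.688), -0.97 ± 0.43 (SE) without WT 2 (limma adjusted p = 0.563) and -0.21 without WT 1. Both Msr1 spots and the Marco spot lie in that bright part, as do those of Folr2 and of the brighter Adgre1 probe, which makes 5 of the 12 member probes.

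**Figure D2:**
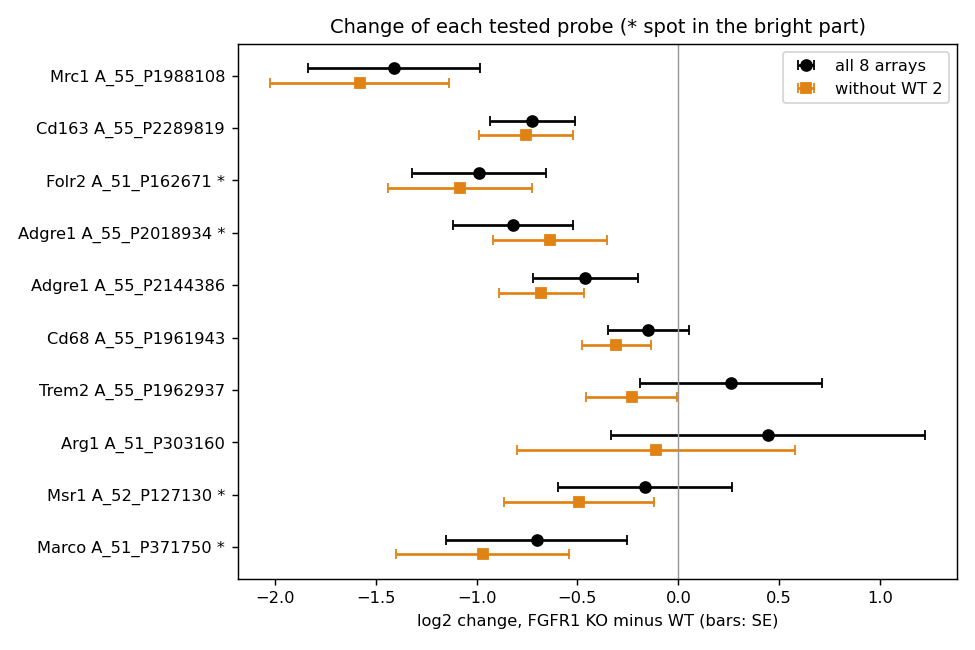
Log2 change (FGFR1 KO minus WT, horizontal axis) of the 10 tested probes with its SE, for all 8 arrays (black circles) and without WT 2 (orange squares); an asterisk marks a spot in the bright part. Mrc1, Cd163 and Folr2 keep changes between -1.58 and -0.72 in both, while Trem2 and Arg1 change sign without WT 2.

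**Figure D3:**
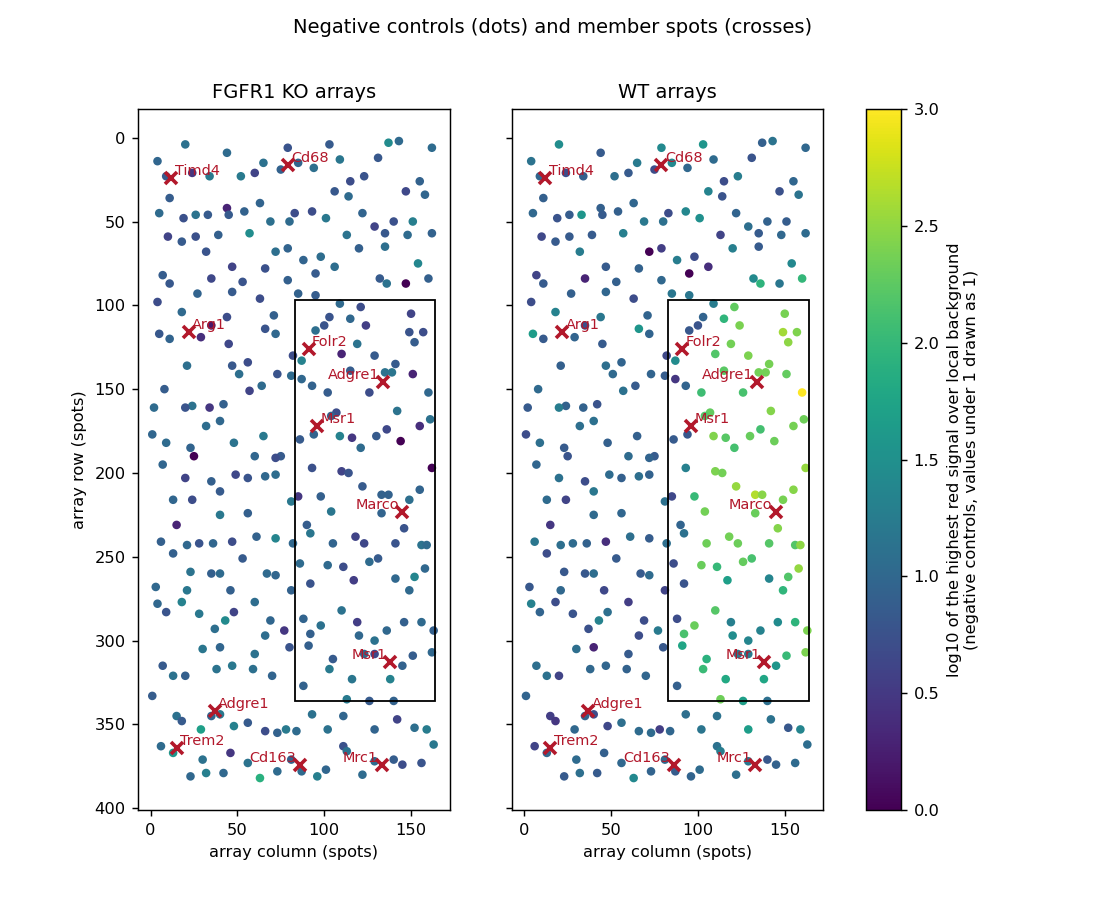
Position on the array (columns and rows of spots) of the 308 negative controls, coloured by the log10 of their highest red signal over local background among 4 arrays, for FGFR1 KO on the left and WT on the right, with the 12 member spots as red crosses and the bright part as a box. Folr2, Marco, both Msr1 spots and 1 of 2 Adgre1 spots lie in the box, and Mrc1 and Cd163 lie below it.

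Set apart, the resident-type and tumour-type markers differed in how they lay between the groups. The median change was -0.99 over the 3 resident-type members tested and 0.05 over the 4 tumour-type members, beside 0.016 over all probes tested and -0.0023 over the 16781 named genes tested. Without WT 2 these medians were -1.08 for resident-type and -0.36 for tumour-type members, and 4 of 4 tumour-type members were then below 0. The array medians of the resident-type markers ran from 0.53 to 1.06 in FGFR1 KO and from 1.29 to 2.74 in WT tumours, with no overlap. Those of the tumour-type markers ran from -0.35 to 0.16 in FGFR1 KO and from -0.68 to 0.63 in WT tumours, with WT 2 the lowest array. Whether the groups of markers differ in their response was not tested.

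Other macrophage genes were described from lists that the members are not part of. Of 27 general macrophage genes, such as the complement C1q chains and receptors for antibodies, 20 were below 0 and 7 above, with a median of -0.28, or -0.59 without WT 2. By limma, 0 passed after adjustment and 1 in each direction had an unadjusted p under 0.05, a share of 27 no higher than the 8.48% over all probes. Maf, a transcription factor of macrophages that other cells also express, differed by -1.48 ± 0.60 (SE; limma adjusted p = 0.561), and by -0.88 without WT 2. Fcgr1, a high-affinity antibody receptor of macrophages, differed by 0.35 ± 0.15 (SE; limma adjusted p = 0.586) and read higher on every FGFR1 KO array than on any WT array, as 2.39% of all probes did. The array medians of this list overlapped, from 0.30 to 0.95 in FGFR1 KO and from -0.14 to 1.08 in WT tumours.

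Of 23 further scavenger and uptake receptors, 18 were tested, 13 were below 0 and the median was -0.39, or -0.45 without WT 2. By limma, 0 passed after adjustment, and 5, all lower, had an unadjusted p under 0.05, a direction and threshold met by 4.85% of all probes. Lrp1, a large endocytic receptor that many stromal cells carry, differed by -0.71 ± 0.21 (SE; limma adjusted p = 0.44), with its spot in the bright part. Scara3, a class A scavenger receptor homologue, differed by -0.77 ± 0.23 (SE; limma adjusted p = 0.44), with its spot outside it. Both read lower on every FGFR1 KO array than on any WT array, which makes 2 of 18 against 2.7% of all probes.

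Genes of monocyte recruitment and macrophage growth factors had 8 of 13 tested members below 0 and a median of -0.04, and without WT 2 it was 11 of 13 and -0.14. By limma, 0 passed after adjustment and 1 had an unadjusted p under 0.05, against 8.48% of all probes. The gene was Ly6c1, a surface antigen of monocytes and endothelium, at -1.33 ± 0.58 (SE; limma adjusted p = 0.589), and next came the monocyte chemokine gene Ccl7 at -0.89 ± 0.43 (SE; limma adjusted p = 0.614). Genes of activation and lipid handling had 17 of 24 below 0 and a median of -0.32, or 19 of 24 and -0.40 without WT 2, again with 0 past the adjusted threshold and 1 with an unadjusted p under 0.05. Fabp4, a fatty acid carrier of fat cells and some macrophages, differed by -3.59 ± 1.37 and by -2.50 without WT 2, and Vegfa, a vessel growth factor, by -0.76 ± 0.34 and by -0.41 without WT 2 (SE; limma adjusted p = 0.54 and 0.597 over all arrays). The spots of Ly6c1, Ccl7, Fabp4 and Vegfa all lie in the bright part.

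**Figure D4:**
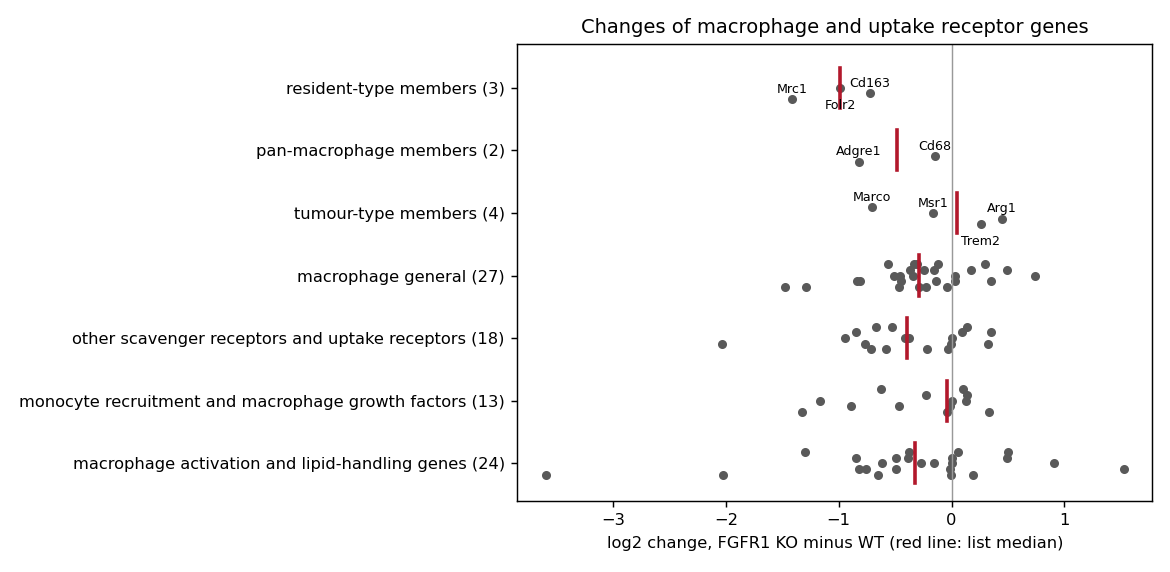
Log2 change (FGFR1 KO minus WT, horizontal axis) of each tested gene in the 3 classes of members and in 4 lists of other macrophage and uptake genes, with the number of genes in brackets and the list median as a red line. The 3 resident-type members all lie left of the 4 list medians, which range from -0.39 to -0.04. Adgre1 (-0.82), Marco (-0.70) and single genes of each list do so too.

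Markers of other cell types moved with the groups and with single arrays, and their part in the member values was not tested. The fibroblast median (8 of 8 genes tested) ran from -1.71 to -0.36 in FGFR1 KO and from 0.026 to 1.25 in WT tumours, and the mast cell median (5 of 8) from -0.09 to 0.13 in FGFR1 KO and from 0.65 to 1.82 in WT tumours. Neither list overlapped between the groups, like the resident-type markers. Adipocyte genes (8 of 8) ran from -0.04 to 0.34 in FGFR1 KO and from 0.41 to 3.79 in WT tumours, and skeletal muscle genes (8 of 8) from -0.31 to 0.71 in FGFR1 KO and from 0.098 to 8.61 in WT tumours, each highest on WT 2. The adipocyte medians did not overlap either, by a narrow gap, and the muscle medians did.

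WT 1, the highest array for Mrc1, Cd163, Folr2 and Marco, was also the highest in the medians of fibroblast (1.25), mast cell (1.82), B cell (1.94, 7 of 8 genes) and T cell genes (0.93, 7 of 8). The same held for general macrophage genes (1.08), further scavenger and uptake receptors (0.54), endothelial (1.06) and dendritic cell genes (0.69) on WT 1. WT 1 was second to WT 2 in adipocyte (2.54) and muscle genes (2.99). WT 2, the lowest array for Trem2, Arg1, Msr1 and Cd68, was also the lowest in epithelial genes (8 of 8), at -0.97 against 1.60 to 2.77 on the other 7 arrays. Without both WT 1 and WT 2, Mrc1 differed by -0.98, Cd163 by -0.52 and Folr2 by -0.62.

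Of the mast cell genes, 4 of 5 tested were below 0 and 3 read lower on every FGFR1 KO array than on any WT array, while Kit, a receptor that other cells also carry, differed by 0.62 ± 0.74 and Tpsb2, a tryptase, by -0.12 ± 0.21 (SE). Of the fibroblast genes, 8 of 8 were below 0 and 5 did not overlap. Over all probes tested, 47.5% were below 0 and 2.7% read lower on every FGFR1 KO array. The genes with the smallest p in both lists read lower on every FGFR1 KO array than on any WT array. The mast cell genes Hdc, which makes histamine, and Mcpt4, a protease, differed by -1.42 ± 0.24 and -2.10 ± 0.41 (SE; limma adjusted p = 0.144 and 0.204), both with spots in the bright part. The fibroblast proteoglycan Lum and the matrix protein Dpt differed by -2.19 ± 0.44 and -2.24 ± 0.48 (SE; limma adjusted p = 0.217 and 0.247), both with spots outside it. Of the dendritic cell list, 6 of 8 genes were tested with a median of 0.02, of the neutrophil list 7 of 8 with a median of -0.76, and of the endothelial list 8 of 8 with a median of -0.26. Without WT 2 these medians were -0.19 for dendritic cell, -0.17 for neutrophil and -0.14 for endothelial genes.

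**Figure D5:**
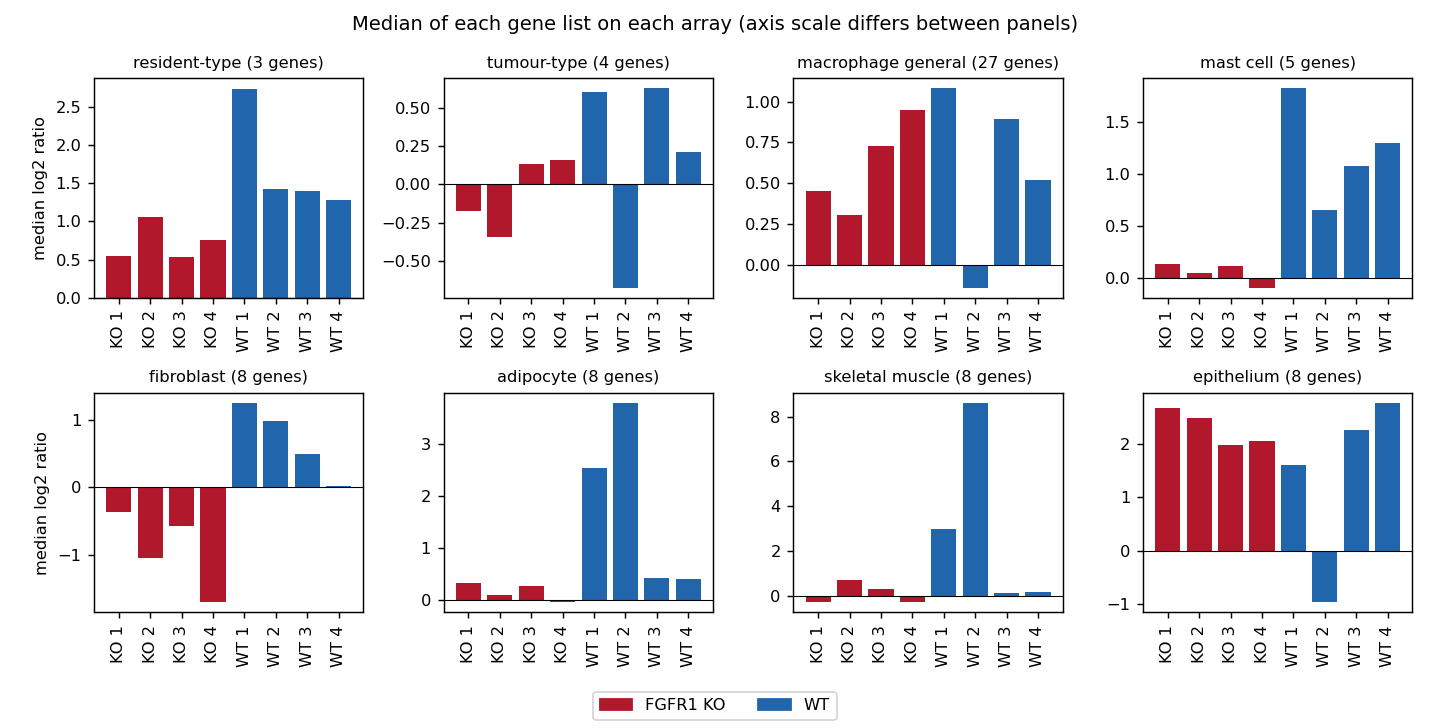
Median log2 ratio (vertical axis, its scale differing between panels) of each gene list on the 4 FGFR1 KO (red, left) and 4 WT arrays (blue, right). Resident-type, mast cell, fibroblast and adipocyte medians do not overlap between the groups, while adipocyte and muscle medians are highest on WT 2, at 3.79 and 8.61.

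The genes nearest to each member were found among 16489 other named genes. The measure was the root mean square difference between centred log2 ratios over the 8 arrays. It is not scaled to a gene's range, so genes that vary little can lie close without rising and falling together. Nearest to Mrc1 were Cma1, a mast cell chymase (0.29), and Rassf2 (0.30), where Mrc1 itself spanned 3.25. Nearest to Cd163 were Sulf1, which trims heparan sulfate outside the cell (0.16), and Dhx35 (0.17), and nearest to Folr2 were Ifi204, an interferon-inducible gene (0.17), and Mzb1, a gene of B and plasma cells (0.24). Adgre1 was nearest to 4933404G15Rik (0.16) and Brs3 (0.19), and Cd68 to Zfp207 (0.092) and Ajap1 (0.10). Trem2 was nearest to Aass (0.23) and Wsb1 (0.23), Arg1 to Igfbp3 (0.50) and Adra2a (0.52), Msr1 to Guca1a (0.26) and Olfr905 (0.26), and Marco to Abhd15 (0.19) and Il4i1 (0.20). Among the members themselves, the smallest differences were between Cd163 and Cd68 (0.42), Cd163 and Adgre1 (0.42), and Cd163 and Folr2 (0.43). Cd163 itself spanned 1.54 and Cd68 0.78. Mrc1 differed less from Marco (0.45) than from Folr2 (0.49) or Cd163 (0.52), and likeness in shape was not measured. With so many genes and 8 arrays, near profiles arise easily, and the distances are a description.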

How the data were processed

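Per the file headers, arrays were scanned in 2 colours and read with Agilent Feature Extraction 11.0.1.1, with probes designed on mm9. The deposited median signals are spot intensities on a linear scale, and the deposited processed signals are intensities after background subtraction and dye normalization within the array. Per the file headers, the deposited ratio is the log10 of red over green. It was 0 at 3.91% to 21.8% of spots, and 97.2% to 100% of these were dim in both channels. The deposited series matrix was read as log2 ratios of red over green, since its values followed those computed here with slopes of 1.12 to 1.16 and correlations of 0.985 to 0.991. Its column medians ran from -0.0152 to 0.0155, and its normalization is unknown here.

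Median signals were background-corrected by normexp with an offset of 50 and loess-normalized within each array with limma 3.58.1 in R 4.3.3. Control and outlier spots were left out and spots of a probe averaged. The two-sided lmFit and eBayes test ran on probes whose red signal was flagged well above background on 4 or more of the 8 arrays, with 3 or more values per group. The fit was tested on simulated data first. An NCBI gene table of GRCm38.p6 named 28331 probes for 21368 genes by accession, and the probe with the brightest red signal represented each gene. Of the 10 members, 9 had a tested probe. The bright part was set from 308 negative controls, as the rectangle around blocks of an 8 by 8 grid where a share of at least 0.2 exceeded 50 units on some array.

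The members and lists were chosen with earlier results of these data known. The genes named were the members, the 2 nearest profiles of each, up to 2 genes with the smallest p of a list, and Fgfr1. Alternatives changed the normalization, channel, filters, weights, probe choice and samples.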

Additional observations from a re-analysis of the deposited data

Results flagged for a closer look

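Among 24 sets of 4 arrays (12 probes in 2 groups), 2 had a sample farther from the others than Dixon's 95% critical value of 0.829 allows, where chance gives about 1 in 20. Mrc1 read 4.31 on WT 1, with the nearest WT array at 2.59 (gap over range 0.909). Folr2 read 2.74 on WT 1, with the nearest WT array at 1.43 (gap over range 0.898), and its spot lies in the bright part. The same array carried the highest B cell, T cell, mast cell, fibroblast, endothelial, dendritic cell and general macrophage medians. The part of these cells in both values was not tested.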

How the results depend on the processing

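Over the 21 alternatives, 0 members passed the adjusted threshold, and Mrc1 (-1.78 to -0.96), Cd163 (-1.28 to -0.52), Folr2 (-1.17 to -0.62), Adgre1 (-1.10 to -0.46), Cd68 (-0.31 to -0.05) and Marco (-0.97 to -0.21) kept a change below 0 in each alternative that measured them. The resident-type median ran from -1.28 to -0.62 and the tumour-type median from -0.39 to 0.38. Arg1 turned to -0.17 with array weights, to -0.66 without both WT 1 and WT 2, and ranged from -0.17 to 0.88 with 1 array left out. Trem2 turned to -0.31 without both WT 1 and WT 2 and ranged from -0.23 to 0.53 with 1 array left out, and Msr1 from -0.49 to 0.22. The cause was not tested. The count of all probes past the threshold, 4 as reported, was 139 with no filter on dim probes, 11 with array weights, 6 with the authors' series matrix, 0 to 1 with 1 array left out, and 0 with Agilent's log ratio, red signal alone, scaling between arrays, probes above background on all 8 arrays, gene means, trend and robust moderation, the bright part left out, or without both WT 1 and WT 2. Chosen after seeing the data, the count of resident-type members lower on every FGFR1 KO array was 3 as reported and 2 in 5 settings. Leaving out arrays cannot make groups that lie apart overlap, so those settings could not lower this count. Folr2 overlapped or was missing with red signal alone, scaling and the bright part left out, and Cd163 with Agilent's log ratio and probes above background on all 8 arrays.

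With the replicate number as a block, 0 probes passed, and 0 members were past the threshold. Each replicate number occurs equally in both groups, and the tested members have a value on every array. The block therefore cannot move a member's change, only its SE and p, so the unmoved changes say nothing about their stability. Deviations of same-numbered arrays from their group means correlated at -0.106 to 0.109. The best-correlated WT array had the same number for FGFR1 KO 2 and 3, and another number for FGFR1 KO 1 and 4. Whether the numbers pair the samples is not settled by these values. The red channel was dim for Timd4 on every array, which limits any statement on it.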
